A study of Mus musculus with 6 samples.

Results

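The transcripts of microglia and macrophages, the phagocytes of the brain and its borders, were followed in cultures that were grown for their neurons. The members are 33 genes out of the 55341 in the count tables. They were chosen by symbol, as 7 genes of resting (homeostatic) microglia, 3 complement C1q genes, 13 genes of myeloid cells in general, 8 genes of the phagocytic state and 2 genes of border-associated macrophages. Bulk RNA was measured by poly(A) RNA-seq in mouse cerebellar granule neuron (CGN) cultures, with 3 libraries from cultures given DMSO, the vehicle, and 3 from cultures given GSK-126, a small-molecule inhibitor of the histone methyltransferase EZH2. Both were added at day in vitro (DIV) 3, and the study's methods put the RNA collection at DIV 5, although GEO's labels give only DIV3 as the time and cerebellum as the tissue. The dose of GSK-126 added at DIV 3 is not given in the sources used here.

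Both groups came from CD1-IGS pups of postnatal day 6 to 8, whose granule neuron precursors were enriched on a Percoll gradient, and all cultures received 1 µM AraC, which blocks cell division, at DIV 2. A culture replicate is CGNs from pooled litters. The cultures were not sorted for myeloid cells, so the members report a minor cell population within neuronal RNA. Fewer such cells and less of a transcript per cell cannot be told apart in these libraries. The drug reached every cell in the dish, so a direct response of myeloid cells and a response to changes in other cells cannot be told apart either.

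EZH2 is the enzyme of Polycomb repressive complex 2 that writes H3K27me3, a histone mark of silenced genes. Microglia enter the brain early in development and depend on signalling through the receptor CSF1R. In the resting state they express purinergic and fractalkine receptors. When they engulf debris, lipids or dying cells, they raise a lysosomal and lectin-rich set of genes, led by Gpnmb, Spp1, Lgals3 and Itgax, and lower the resting set, in a shift described for development, demyelination and neurodegeneration. Some genes of the phagocytic set, such as Spp1, Lgals3 and Gpnmb, can also be expressed by cells outside the myeloid lineage.

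The libraries held between 7407189 and 13092763 counts on genes. The myeloid identity of the signal was read from the general myeloid genes. All of them that could be read were detected in every library, including Spi1, which encodes PU.1, the master transcription factor of macrophages, Csf1r, Ptprc (the leukocyte antigen CD45) and Itgam (CD11b). Markers of other leukocytes were low. The 10 monocyte and neutrophil markers summed to between 5.06 and 13.2 CPM per library (read counts scaled to library size and by TMM factors) and the 10 lymphocyte markers to between 1.31 and 9.17 CPM. In comparison, the 13 general myeloid genes summed to between 273 and 660 CPM. The defining lymphocyte genes Cd3e, Cd3d, Cd8a, Ms4a1, Nkg7 and Ncr1 and the neutrophil gene Ly6g had no count in any library. The part of the remaining markers in the results was not tested.

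The level of the members was led by the phagocytic set. Per kilobase of exon, Spp1, a secreted phosphoprotein called osteopontin, had the highest mean level of all members, at 1081 CPM per kb. Lyz2 (lysozyme) stood at 671 CPM per kb and Gpnmb, a glycoprotein of lysosome-rich phagocytes, at 111 CPM per kb. Of the C1q genes, C1qa was highest at 135 CPM per kb, and of the general myeloid genes Tyrobp, the adaptor of TREM2 and other receptors, at 56.8 CPM per kb. Fcrls, an Fc receptor-like gene of microglia, led the resting set at 11.1 CPM per kb, and the other resting genes that passed the filter on low counts ranged down to 1.21 CPM per kb for P2ry13. Mrc1, the mannose receptor CD206 of border macrophages, was at 24.2 CPM per kb and was above Pf4, a chemokine of the same cells.

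Of the 33 members, 30 passed the filter on low counts. Cst7, a cystatin of disease-associated microglia, did not pass, with between 3 and 19 counts per library (0.323 to 1.65 CPM). Siglech, a sialic acid-binding lectin of resting microglia, had no count in any library, and 3 counts correspond to between 0.227 and 0.401 CPM across these libraries, for counting error only. Trem2, the lipid receptor of phagocytic microglia, is listed at 0 in all 6 libraries. It lies in a run of 16 neighbouring protein-coding genes on chromosome 17, from 1700122O11Rik to Unc5cl, that are all listed at 0, among them Nfya and Oard1, which cells in general express. The level of Trem2 therefore cannot be read from these tables.

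The main comparison asks whether blocking EZH2 in maturing neuronal cultures moved these genes. In edgeR's quasi-likelihood test without a block, no member passed an adjusted p of 0.05 over 16729 genes, and neither did any other gene (0% called). At an unadjusted p under 0.05, this fit held 3 of the 30 members, namely Gpnmb, Itgax and Clec7a, and 665 of all genes. DESeq2 without a block called 0 members, and 19 genes higher and 2 lower in all. All 30 members had a positive log2 fold change in the fit without the block, with a median of 0.29 against -0.01 for all genes tested. This held for only 18 of them without DMSO replicate 2 and for 22 without GSK-126 replicate 3. With any other single library left out, it held for 26 to 30.

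The libraries carry replicate numbers that pair them, as the counts show: same-numbered libraries shared their deviations from the group means. With the replicate number as a block, 13 of the 30 members were called higher and 0 lower with GSK-126. Of all genes tested, 3.35% were called higher and 5.09% lower in this fit. The 13 were the 3 C1q genes, 4 general myeloid genes and 6 phagocytic genes. None of the 6 resting genes tested and neither border macrophage gene was called. DESeq2 with the block called 9 of the 13 higher, against 3.28% of the genes to which it gave an adjusted p, and it gave one to 23 of the members. It did not call Tyrobp (DESeq2 adjusted p = 0.0506), Fcgr3 (0.0709) or Laptm5 (0.0765), and it gave Clec7a no adjusted p. A total of 20 members were higher in all 3 pairs, against 19.5% of all genes tested. For 3 members, Gpnmb, Itgax and Clec7a, the GSK-126 libraries all lay above the DMSO libraries, against 4.72% of all genes.

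The 13 called members had a median level of 106 CPM, and the 17 tested and not called had a median of 15.6 CPM, with exceptions both ways. Mrc1 and Cd68 were not called at means over 100 CPM in both groups, and Clec7a was called at 8.16 CPM with DMSO. Leaving out pair 1 kept 10 of the 13 calls and leaving out pair 3 kept 11. Without pair 2, whose libraries were lowest for most members, 7 of the 13 calls were kept, and 8 members were called in all. Of all genes tested, 417 of 16868 were called higher without pair 1, 337 of 16839 without pair 2 and 558 of 16898 without pair 3. C1qa, Itgb2, Lyz2, Lgals3, Gpnmb and Spp1 were called whichever pair was left out.

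**Figure D1:**
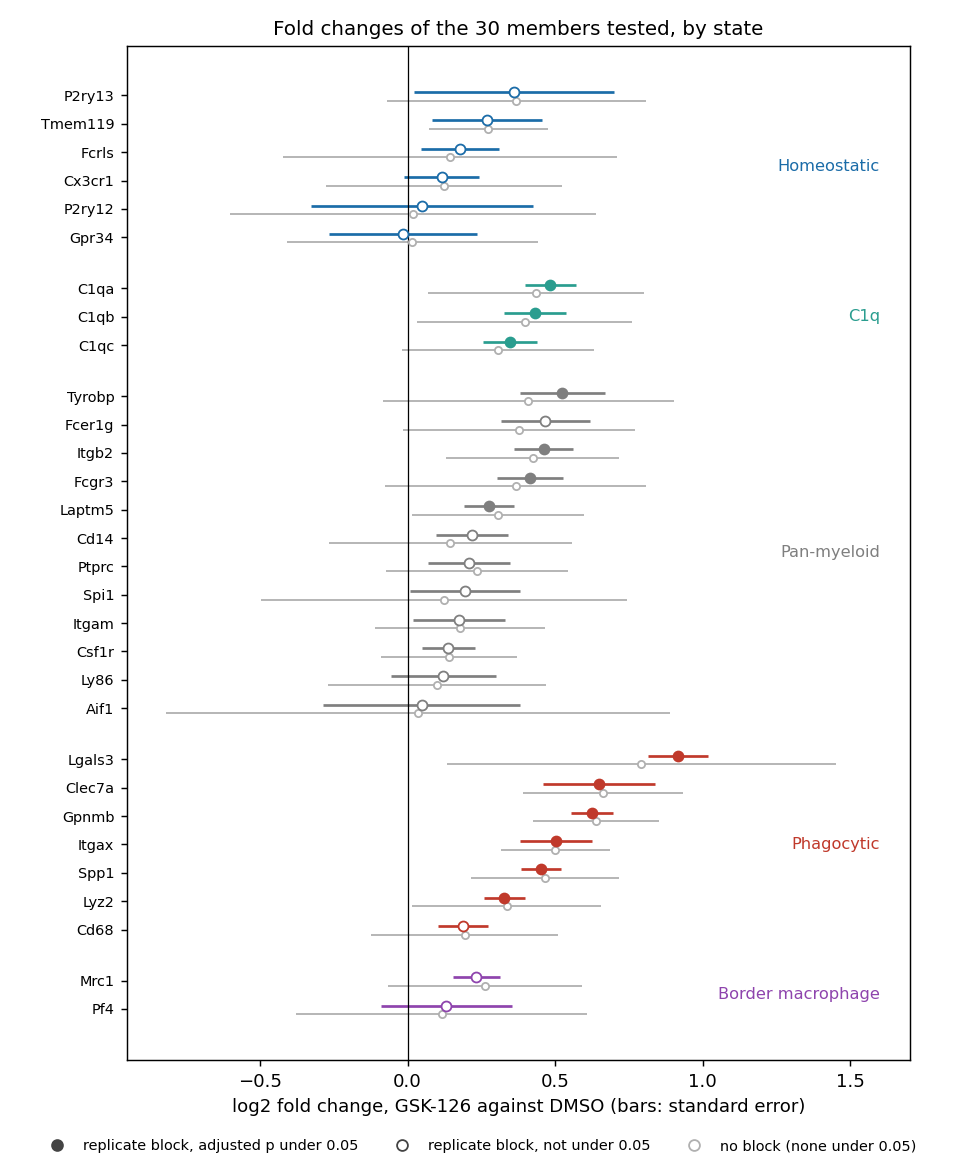
The log2 fold change of each of the 30 members tested is plotted on the horizontal axis for GSK-126 against DMSO, with its standard error as a bar, in rows grouped by state. Coloured points are from the fit with the replicate block (filled where the adjusted p is under 0.05) and grey points from the fit without it. The 13 filled points lie between 0.28 and 0.92, and the 6 resting genes lie between -0.02 and 0.36 with open points.

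The phagocytic genes included the highest fold changes among the members tested. Lgals3, a galectin that is secreted and binds damaged lysosomes, was at 57.8, 26.2 and 152 CPM in DMSO replicates 1 to 3 and at 108, 64.3 and 238 CPM in the GSK-126 replicates of the same numbers. Each GSK-126 library was above its DMSO partner, yet the groups overlapped, because replicate 3 was high and replicate 2 low in both. Its log2 fold change was 0.92 with the block (SE 0.10, adjusted p = 5.61e-06) and 0.79 without it (SE 0.66, adjusted p = 0.953). With the block this is 1.89-fold higher.

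Gpnmb was at 615, 466 and 619 CPM with DMSO and at 927, 660 and 1059 CPM with GSK-126. All 3 GSK-126 values exceeded all 3 DMSO values. For Gpnmb the log2 fold change was 0.62 with the block (SE 0.07, adjusted p = 9.21e-06) and 0.64 without it (SE 0.21, adjusted p = 0.953).

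Spp1, the most abundant member, was at 1254, 1381 and 1854 CPM with DMSO and at 1621, 1875 and 2705 CPM with GSK-126. It was higher by 0.37, 0.44 and 0.55 on the log2 scale in pairs 1, 2 and 3, and the groups overlapped. The block fit gave a log2 fold change of 0.45 (SE 0.07, adjusted p = 1.66e-04). Spp1 shares 18.8% of its exon bases with Gm42793 on the same strand, so part of its reads may have gone uncounted.

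Itgax, the integrin CD11c that marks phagocytic and white-matter-associated microglia, was at 23.5, 19.9 and 27.5 CPM with DMSO and at 32.0, 29.0 and 39.4 CPM with GSK-126. The groups did not overlap. The log2 fold change of Itgax was 0.50 with the block (SE 0.12, adjusted p = 0.0124), and without pair 2 the adjusted p was 0.0560.

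Clec7a, the beta-glucan receptor dectin-1, was at 7.84, 6.99 and 9.65 CPM with DMSO and at 10.4, 10.9 and 17.8 CPM with GSK-126. It too had no overlap between the groups, at the lowest level of the called members. With a log2 fold change of 0.65 in the block fit (SE 0.19, adjusted p = 0.0381), it was called. It lost the call when pair 2 (adjusted p = 0.105) or pair 3 (adjusted p = 0.267) was left out.

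Lyz2, a bactericidal enzyme of macrophages and neutrophils, was at 698, 566 and 1078 CPM with DMSO and at 804, 744 and 1408 CPM with GSK-126. It was higher in each pair, and the groups overlapped. The block fit gave Lyz2 a log2 fold change of 0.33 (SE 0.07, adjusted p = 0.00407).

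Cd68, a lysosomal membrane glycoprotein used to stain phagocytes, was the tested phagocytic gene that was not called. It was at 66.4 to 132 CPM with DMSO and at 71.8 to 140 CPM with GSK-126, with a log2 fold change of 0.19 in the block fit (SE 0.08, adjusted p = 0.192). The median log2 fold change of the 7 phagocytic genes tested was 0.50 in both fits.

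The 3 C1q genes encode the chains of the recognition molecule of the classical complement pathway, which tags synapses and debris for uptake, and they lie next to each other on chromosome 4. C1qa was at 181, 68.4 and 110 CPM with DMSO and at 215, 109 and 162 CPM with GSK-126. C1qb was at 87.1, 38.7 and 95.3 CPM with DMSO and at 129, 63.2 and 98.2 CPM with GSK-126. C1qc was at 124, 52.7 and 108 CPM with DMSO and at 146, 82.8 and 123 CPM with GSK-126. All 3 were higher in every pair, with the lowest value in DMSO replicate 2, and the groups overlapped.

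In the block fit their log2 fold changes were 0.48 for C1qa (SE 0.09, adjusted p = 9.64e-04), 0.43 for C1qb (SE 0.11, adjusted p = 0.0130) and 0.35 for C1qc (SE 0.09, adjusted p = 0.0204). The size was not even over pairs. For C1qb the difference was 0.57 and 0.71 in pairs 1 and 2 and 0.04 in pair 3. Without pair 2, C1qb had an adjusted p of 0.124 and C1qc one of 0.139, and without pair 1 C1qb had one of 0.0643.

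Of the 12 general myeloid genes tested, 4 were called in the block fit. DESeq2 with the block called only Itgb2 of these. Itgb2, the beta chain (CD18) shared by CD11b and CD11c, was at 46.6, 36.5 and 76.9 CPM with DMSO and at 70.3, 54.6 and 90.2 CPM with GSK-126. In the block fit it differed by 0.46 on the log2 scale (SE 0.10, adjusted p = 0.00507), and it was called with each pair left out.

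Tyrobp was at 30.9, 12.6 and 54.0 CPM with DMSO and at 39.0, 28.2 and 62.6 CPM with GSK-126. Its difference was 1.16 on the log2 scale in pair 2 and 0.34 and 0.21 in pairs 1 and 3. The block fit gave 0.52 (SE 0.14, adjusted p = 0.0273), with an adjusted p of 0.229 when pair 2 was left out.

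Fcgr3, an activating receptor for IgG (CD16), was at 37.6, 17.2 and 55.4 CPM with DMSO and at 49.5, 26.9 and 66.1 CPM with GSK-126. It was higher in each pair, with overlapping groups. The block fit gave a log2 fold change of 0.41 (SE 0.11, adjusted p = 0.0247), and the call was lost without pair 1 (adjusted p = 0.0668) or pair 2 (adjusted p = 0.122).

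Laptm5, a lysosomal membrane protein of leukocytes, was at 133, 86.7 and 143 CPM with DMSO and at 182, 89.9 and 175 CPM with GSK-126. Its pair 2 difference was small, at 0.05 on the log2 scale. The block fit gave 0.28 (SE 0.08, adjusted p = 0.0486), and the call was lost without pair 1 (adjusted p = 0.411) or pair 3 (adjusted p = 0.142).

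The other 8 general myeloid genes tested were not called. Fcer1g, the signalling chain of Fc receptors, was at 26.99, 12.4 and 39.8 CPM with DMSO and at 39.3, 24.3 and 39.3 CPM with GSK-126, level in pair 3 and higher in the others. It came nearest to a call, with a log2 fold change of 0.47 in the block fit (SE 0.15, adjusted p = 0.0635). Csf1r, the receptor on which microglia depend for survival, had 80.4, 50.0 and 71.8 CPM with DMSO and 93.3, 57.0 and 72.1 CPM with GSK-126. It had a log2 fold change of 0.14 with the block (SE 0.09, adjusted p = 0.406). Csf1r shares 15.1% of its exon bases with Hmgxb3 on the opposite strand.

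Spi1 had 9.23, 4.75 and 22.2 CPM with DMSO and 13.5, 5.28 and 20.97 CPM with GSK-126, and its log2 fold change was 0.20 with the block (SE 0.19). Spi1 thus differed more between replicate numbers than between the treatments. Ptprc (0.21), Cd14, a co-receptor for lipopolysaccharide (0.22), Itgam (0.18), Ly86, a partner of a Toll-like receptor homologue (0.12), and Aif1, the calcium-binding protein IBA1 (0.05), had the log2 fold changes given in brackets in the block fit. Of the exon bases of Itgam, 68.7% are shared with Gm49368 on the same strand, so its level may be understated. The median over the 12 general myeloid genes tested was 0.21 in both fits.

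The resting genes stood at low levels. Fcrls was at 21.6, 10.3 and 41.7 CPM with DMSO and at 26.6, 11.7 and 43.3 CPM with GSK-126, so its libraries were ordered by replicate number and the treatments differed little within a number. The block fit gave a log2 fold change of 0.18 (SE 0.13, adjusted p = 0.479). Cx3cr1, the fractalkine receptor, was at 41.1, 17.99 and 20.3 CPM with DMSO and at 44.0, 21.4 and 20.3 CPM with GSK-126. In the block fit Cx3cr1 had a log2 fold change of 0.12 (SE 0.13, adjusted p = 0.654).

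P2ry13, a purinergic receptor for ADP, and Tmem119, a membrane protein used as a microglial marker, had the highest fold changes of the set in the block fit. Their log2 fold changes were 0.36 (SE 0.34) and 0.27 (SE 0.19), neither called. P2ry12, the ADP receptor that steers microglial processes, had between 0.932 and 5.23 CPM and a log2 fold change of 0.05 (SE 0.38). Gpr34, a lysophospholipid receptor, had between 3.77 and 8.34 CPM and -0.02 (SE 0.25), the one negative value among the tested members in the block fit, and 0.02 without the block. The C1qa value of 0.48 lay within 2 standard errors of the estimates for P2ry13, Tmem119, P2ry12 and Gpr34. The fit therefore cannot tell whether those genes differed by that much. For Fcrls and Cx3cr1 it lay outside 2 standard errors.

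The median log2 fold change over the 6 resting genes tested was 0.13 without the block and 0.15 with it, against -0.01 for all genes tested. A further list of homeostatic genes, of which 11 were tested, had a higher median, of 0.35 with the block.

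Among the border macrophage genes, Mrc1 was at 165, 92.5 and 163 CPM with DMSO and at 211, 96.0 and 198 CPM with GSK-126. It was higher in each pair, by 0.05 to 0.35 on the log2 scale, with an adjusted p of 0.0809 in the block fit (log2 fold change 0.23, SE 0.08). Without pair 2 its adjusted p was 0.0209. Pf4 had between 4.61 and 12.6 CPM, with a log2 fold change of 0.13 (SE 0.22). Of 10 further border macrophage genes, 8 were tested and 0 called in the block fit (0 at an unadjusted p under 0.05), and Stab1, a scavenger receptor with the highest level of that list, was at 94.8 to 192 CPM over the libraries (block fit, SE 0.08, adjusted p = 0.998).

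**Figure D2:**
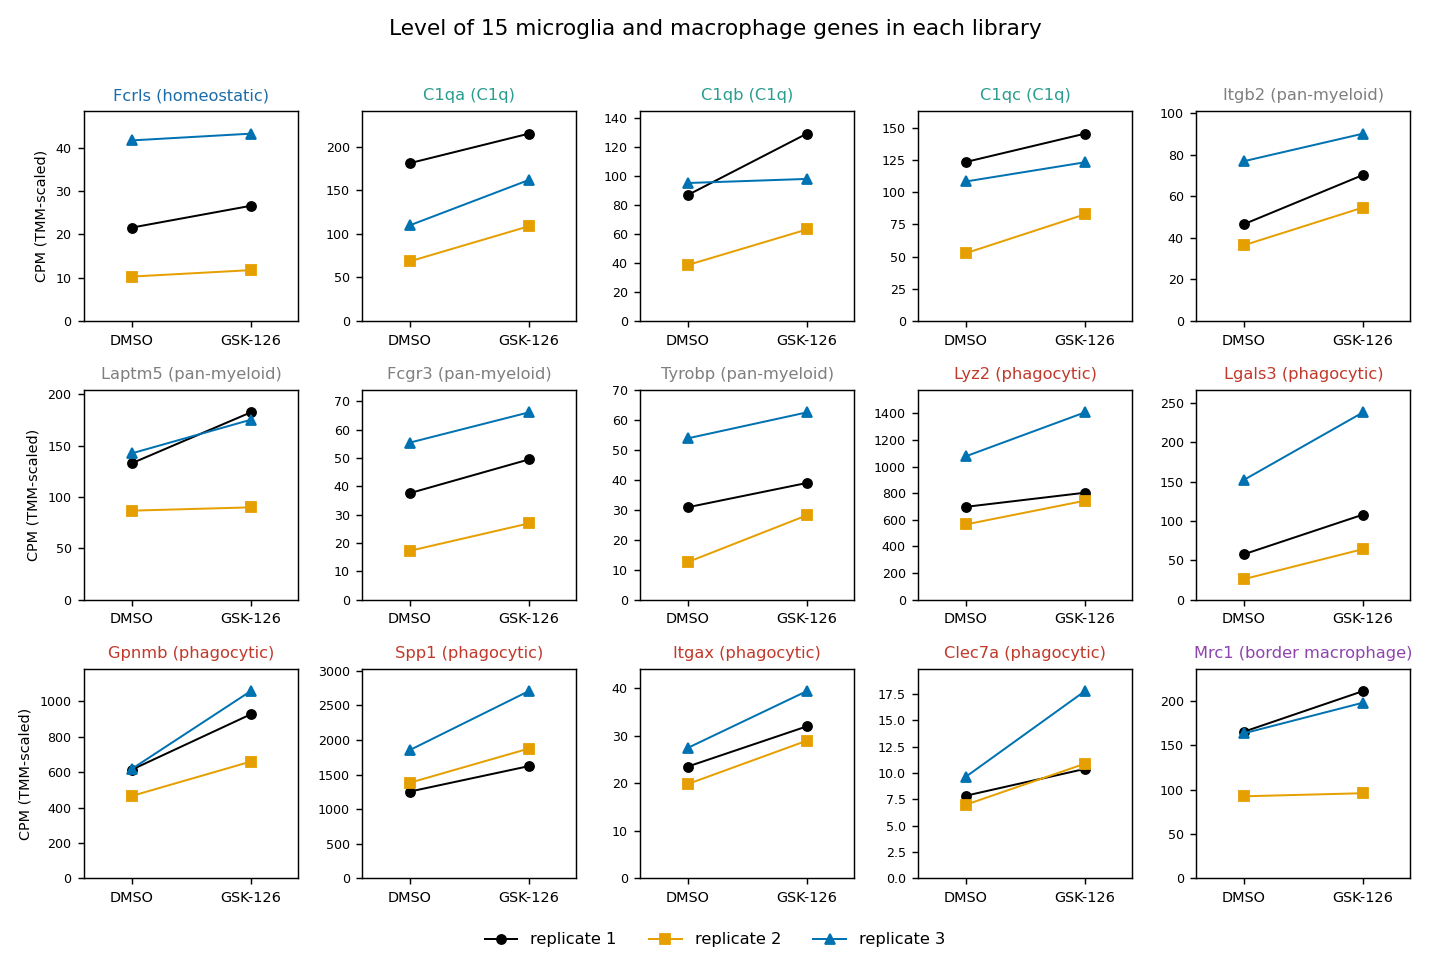
Each panel gives the level of 1 gene in CPM, from 0, in the DMSO and GSK-126 libraries, with a line joining libraries of the same replicate number. Shown are the 13 members called with the replicate block and Fcrls and Mrc1, which lead their states per kilobase, and in every panel the 3 lines run level or upward, with replicate 2 lowest in most.

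The states differed within a library. The mean log2 CPM of the 7 phagocytic genes minus that of the 6 resting genes was 3.69, 4.37 and 4.39 in DMSO replicates 1 to 3 and 3.92, 4.57 and 5.02 in the GSK-126 replicates. It was therefore higher with GSK-126 in each pair, by 0.23, 0.20 and 0.63. The mean of the pair differences was 0.35 ± 0.24 (SD, n = 3 pairs), and the values of the groups overlapped. Replicate 1 was lowest in both groups.

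Against the general myeloid genes, the phagocytic genes were higher with GSK-126 by 0.20, 0.08 and 0.43 in pairs 1 to 3, and the resting genes lower by a log2 difference of -0.03, -0.12 and -0.20. The C1q genes were higher against the general myeloid genes by 0.08, 0.19 and 0.14. These differences over lists were given no test.

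The treatment difference in the ratio of phagocytic to resting genes was about as large without Spp1, the most abundant member. The log2 ratio of the summed CPM of the phagocytic genes to that of the resting genes was higher with GSK-126 by 0.19, 0.19 and 0.53 in pairs 1 to 3, and by 0.22, 0.20 and 0.52 with Spp1 left out. The resting sum itself was at 87.9, 45.4 and 83.3 CPM with DMSO and at 101, 54.4 and 83.6 CPM with GSK-126. The phagocytic sum was at 2764, 2533 and 3872 CPM with DMSO and at 3643, 3455 and 5607 CPM with GSK-126. Both sums were higher in each pair, the phagocytic one by more.

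**Figure D3:**
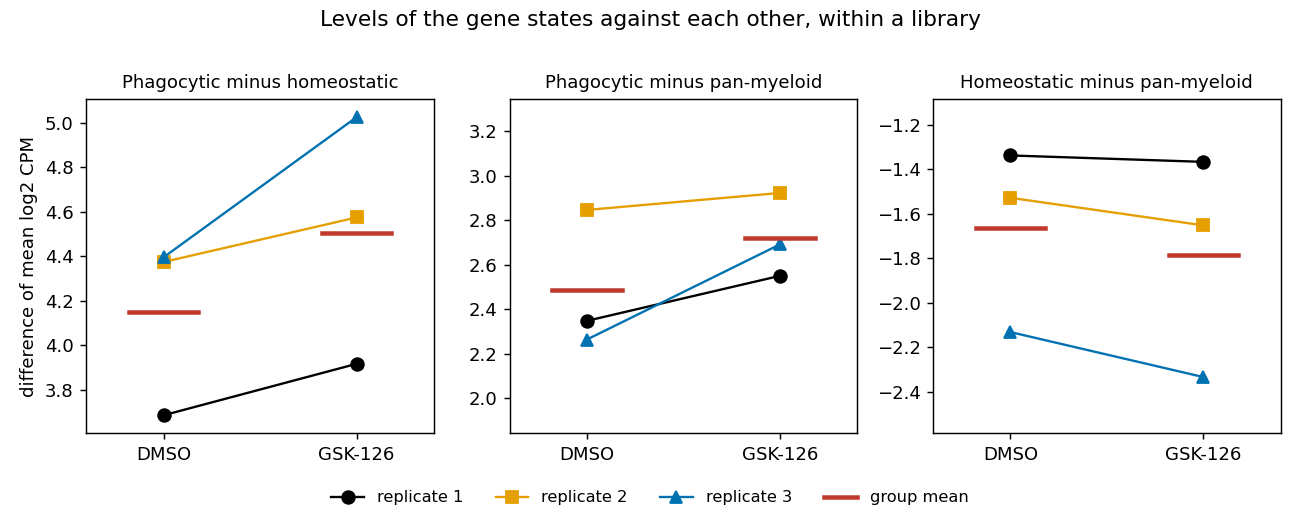
Mean log2 CPM of one gene state minus that of another is plotted for each library in 3 panels, with lines joining libraries of the same replicate number and red bars at the group means. The vertical axes span the same range of log2 units around each panel's middle. Phagocytic minus homeostatic values are higher with GSK-126 in all 3 pairs, and homeostatic minus pan-myeloid values lower in all 3.

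The members also varied between cultures, and not all in the same order. For 27 of the 30 members tested the ratio of the highest to the lowest pair mean was larger than the fold change between treatments in the block fit. The exceptions were Gpnmb (1.49 against 1.54-fold), Itgax (1.37 against 1.42-fold) and Clec7a (1.53 against 1.57-fold), the members whose groups did not overlap. Replicate 2 had the lowest mean of the 3 pairs for 27 of the 30 members tested. The highest mean was in replicate 1 for 9 members, among them 4 of the 6 resting genes and all 3 C1q genes. It was in replicate 3 for 20 members, among them all 7 phagocytic genes and 11 of the 12 general myeloid genes. Tmem119 was the exception, with its highest mean in replicate 2. From the lowest to the highest pair, the level rose most for Aif1, 6.46-fold. The rise was 4.32-fold for Lgals3, 4.30-fold for Spi1, 3.86-fold for Fcrls and 2.24-fold for C1qa, and only 1.22-fold for Tmem119.

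Resting genes did not move as a unit over the cultures. Cx3cr1, Gpr34, P2ry12 and P2ry13 were highest in replicate 1, while Fcrls was highest in replicate 3, with the phagocytic genes. The replicate numbers are those of the labels, and what differed between the cultures is not given beyond pooled litters.

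**Figure D4:**
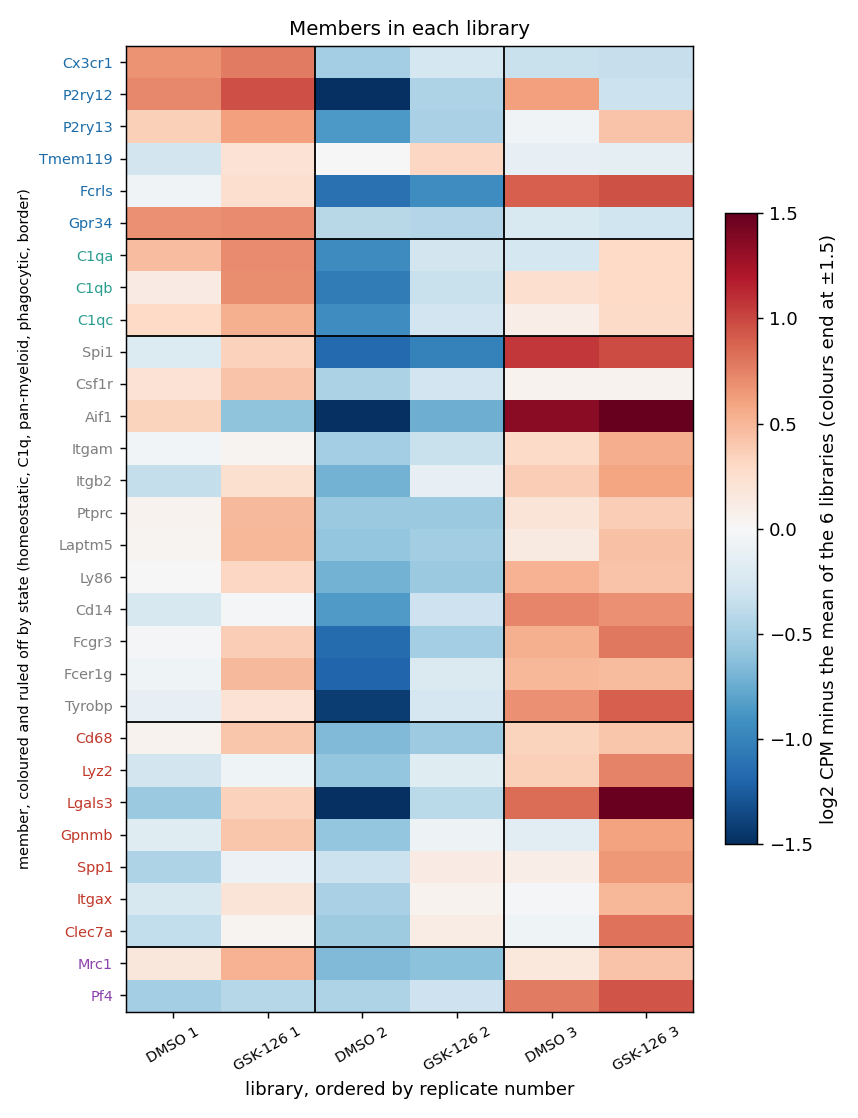
Rows are the 30 members tested, grouped by state, and columns are the 6 libraries ordered by replicate number. Colours give log2 CPM minus the gene's mean over the 6 libraries, red for higher and blue for lower. Columns 3 and 4, replicate 2 of both groups, are blue for most rows, replicate 3 is red for most phagocytic and general myeloid rows, and replicate 1 is red for most resting rows. For Gpnmb, Itgax and Clec7a, DMSO replicate 3 lies below the gene's mean.

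The start regions of the members were read in RefSeq's GRCm38.p6 promoter windows, which run from 250 bases before to 50 after the start, because PU.1, the product of the member Spi1, and the AP-1 factors are known regulators of macrophage genes. Windows were found for 25 of the 33 members. On either strand, the PU.1 core GAGGAAGT was in the windows of C1qc, Pf4 and Spp1, and in 3.20% of 32851 windows of all genes. The AP-1 site TGAGTCA was in those of Cd68, Gpnmb and Itgax, and in 5.20% of all. The C/EBP site TTGCGCAA was in no member's window (0.183% of all), and TCACGTG, an E-box bound by MITF and TFE factors, in those of P2ry12 and Siglech (3.77% of all). The sites of the PU.1 and AP-1 motifs are given below with 10 bases on each side, on the gene's strand and 5′ to 3′, with the motif in capitals. They are shown because 4 of these 6 genes, C1qc, Spp1, Gpnmb and Itgax, were called higher, against 13 of the 30 members tested. Sites chosen in this way by the calls cannot show whether a match goes with a call. The E-box sites of P2ry12, which was not called, and Siglech, which had no count, are not shown.
Gpnmb, chr6:49036516-49036542 (+): caggggcaagTGACTCAtgagcacgag
Itgax, chr7:128129484-128129510 (+): ccacctcctcTGAGTCAcgctgacaac
Cd68, chr11:69666303-69666329 (-): aagttccgtgTGAGTCAgctgcctcat
Cd68, chr11:69666178-69666204 (-): ctgaggtgtcTGAGTCAggtttggggt
Spp1, chr5:104434988-104435015 (+): aaaaccagagGAGGAAGTgtaggagcag
C1qc, chr4:136893092-136893119 (-): gacggcagacACTTCCTCattttggcac
Pf4, chr5:90772415-90772442 (+): tctgcagagcACTTCCTCatcctgtatc
The motif of Gpnmb begins 8 bases after the RefSeq start site, and that of Itgax 56 bases before it. The Cd68 window holds 2 matches, and Cd68 was not called, so a match went with a call in some of these genes and not in others. A match of letters is a description of the sequence and not of binding.

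Other genes of the same pathways were counted in lists that do not hold the members. Counts of genes that rose or fell in these lists are calls in the block fit. That fit called 3.35% of all genes tested higher and 5.09% lower. Of 22 further genes of disease-associated microglia, all tested, 12 rose and 0 fell in the block fit. Their median log2 fold change of 0.36 with the block was close to the 0.35 of the further homeostatic list, so the medians of these further lists did not show the gap between states seen among the members. Fabp5, a fatty acid-binding protein, rose by 0.88 on the log2 scale (SE 0.08, adjusted p = 7.20e-07), Ccl6, a chemokine of myeloid cells, by 0.80 (SE 0.08, adjusted p = 2.91e-06), and Ctsl, a lysosomal protease, by 0.52 (SE 0.07, adjusted p = 7.42e-05). Ctsd, another lysosomal protease, rose by 0.41 (SE 0.07, adjusted p = 6.11e-04). Several of these, the cathepsins and Fabp5 included, are expressed widely outside the myeloid lineage. Ctsl and Ctsd share 26.8% and 34.4% of their exon bases with other genes, so part of their reads may have gone uncounted.

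Of 34 further general myeloid genes tested, 6 rose and 0 fell, against 3.35% and 5.09% of all genes tested. DESeq2 with the block called 5 genes of this list higher. Plek, a substrate of protein kinase C in leukocytes, rose by 0.46 (adjusted p = 0.00141), Cd53, a leukocyte tetraspanin, by 0.52 (adjusted p = 0.00166), Syk, the kinase downstream of Tyrobp, by 0.79 (adjusted p = 0.00198) and Lcp1, an actin-bundling protein, by 0.48 (adjusted p = 0.00441). The median log2 fold change of that list was 0.28 with the block, against -0.01 for all genes tested.

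Among 8 genes for signals that microglia receive, which include ligands of CSF1R, CX3CR1, TREM2 and the TGF-beta receptors, 3 rose and 0 fell in the block fit. DESeq2 with the block called 2 genes of this list higher. Csf1, the ligand of CSF1R, rose by 0.38 (SE 0.08, adjusted p = 0.00366), Tgfb1, which maintains the resting state, by 0.46 (SE 0.12, adjusted p = 0.0210) and Apoe, a lipid carrier bound by TREM2, by 0.34 (SE 0.08, adjusted p = 0.00777). The other 5 genes of the list were not called. Apoe also belongs to the further list of disease-associated genes, so those lists overlap.

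Markers of other cells moved in the same comparison. All 8 granule neuron markers had negative log2 fold changes, and 5 of them fell in the block fit, including Gabra6, a GABA receptor subunit of mature granule neurons, by a log2 fold change of -1.19 (adjusted p = 1.53e-07), and Etv1, a maturation factor, by -1.17 (adjusted p = 1.53e-07). Rbfox3, which encodes the neuronal protein NeuN, had -0.59 (adjusted p = 2.69e-05) and Neurod1 -0.47 (adjusted p = 1.11e-04). Their summed level was 3356 to 5348 CPM with DMSO and 2695 to 4117 CPM with GSK-126.

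In the block fit 3 of 7 fibroblast and mural markers rose, Acta2 by 0.43, Pdgfrb by 0.36 and Col1a2 by 0.22 on the log2 scale, with summed levels of 5120 to 7156 CPM against 6407 to 7890 CPM. For 8 astroglial markers 1 rose, S100b by 0.56, with sums of 2380 to 7332 CPM against 2271 to 7705 CPM, and for 8 oligodendroglial markers 1 rose, Mbp by 0.28, with sums of 433 to 747 CPM against 502 to 762 CPM. Of 5 endothelial and 6 cycling-cell markers tested, 0 were called, and at an unadjusted p under 0.05 the counts were 1 and 0. Cdh5, the most abundant endothelial marker, was at 26.5 to 61.6 CPM. The cycling markers, led by Top2a, summed to 244 to 330 CPM with DMSO and 217 to 364 CPM with GSK-126. The part of these shifts in the results for the members was not tested.

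The 2 monocyte and neutrophil markers and the 1 lymphocyte marker that passed the filter were not called in the block fit, or at an unadjusted p under 0.05. Csf3r, the most abundant of the first list, was at 3.12 to 6.52 CPM over the libraries, and Cd4, of the second, at 1.31 to 8.64 CPM. Lyz2, which neutrophils also express, was at 566 CPM or more in every library.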

How the data were processed

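RNA of 6 mouse CGN culture libraries was analysed, grouped by the agent and replicate number in the sample titles. Per the study's methods and the submitters' processing notes, the authors trimmed reads with Trimmomatic 0.38, aligned them to mm10 (GRCm38.p4) with STAR 2.7.2b and counted reads on exons with HTSeq. The deposited values are raw counts per gene, with no normalization. The Gencode release and the strand setting of the counting are not given in the sources used here. The 55341 symbols match those of GENCODE M21, which gave identifiers, lengths and overlaps. Lines naming no gene held 58.7% to 60.7% of the listed reads and were left out. Mitochondrial genes took 1.75% to 2.78% of the counts on genes. No library was a copy of another (chi-square per degree of freedom 8.94 or more).

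Counts were tested in R 4.3.3 with edgeR 4.0.16 (TMM, filterByExpr, quasi-likelihood test, no block), with Benjamini-Hochberg adjustment over 16729 genes and calls at an adjusted p under 0.05. Every adjusted p is from edgeR unless DESeq2 1.42.0 is named. Standard errors are the log2 fold change divided by the root of F. The fits were also run on simulated counts. These were built from the pair means of the same libraries, so that run cannot decide whether a block is called for.

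Libraries with the same number had correlations of 0.52, 0.60 and 0.44 between their deviations from the group means, over 16673 genes. For libraries with different numbers the values were -0.46 to 0.02. Deviations from a mean of 3 libraries cancel out, so these values are not independent of the same-number ones. The pairing rests on the same-number values, and the replicate block is given beside the main fit. The coefficient of variation was 24.0% without and 9.74% with the block. The study's methods describe the RNA-seq replicates of a condition as independent unless noted otherwise, and the labels give only their number.

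The members and lists were chosen with earlier results of these data known. All members are accounted for. Values per library are given for members called in any fit and for the member highest per kilobase of exon in each state. From each other list up to 4 called genes are named, by p, or else its most abundant gene. Spi1, Csf1r, Cx3cr1 and a few further genes were added after their values were seen. The calls within a further list of homeostatic genes, and the values of some single marker genes, are not reported here.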

Additional observations from a re-analysis of the deposited data

How the results depend on the processing

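All 30 members kept a positive log2 fold change, and 0 were called, in the fits without the block that used DESeq2, total counts, upper-quartile scaling, a stricter filter of 10 counts per library or none. With the replicate block 13 members were called in place of 0, 9 with DESeq2 and the block, 10, 8 and 12 with pairs 1, 2 and 3 left out, and 15 with the block and either upper-quartile scaling or total counts, 2 alternatives chosen after seeing the data. The 2 further calls there are Fcer1g and Mrc1. With total counts and the block, 714 of all genes were called higher and 707 lower, against 561 and 851 with TMM, and the median of all genes moved to 0.03. With pairs 1, 2 and 3 left out, 417, 337 and 558 of all genes were called higher.

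Leaving out 1 library without the block breaks the pairing. The number of members called stayed at 0. The resting median then ranged from -0.13 to 0.39, the phagocytic median from 0.22 to 0.65 and their difference from -0.025 (without GSK-126 replicate 3) to 0.70. The log2 fold change changed sign for some members, with ranges of -0.32 to 0.60 for Cx3cr1, -0.049 to 0.31 for Csf1r, -0.60 to 0.34 for P2ry12, -1.11 to 0.90 for Aif1, -0.35 to 0.78 for Fcrls, -0.44 to 0.44 for Gpr34, -0.078 to 0.39 for Itgam, -0.16 to 0.45 for Ly86, -0.038 to 0.46 for Cd68, -0.19 to 0.69 for Cd14, -0.44 to 0.67 for Pf4, -0.013 to 0.64 for Lyz2 and -0.35 to 0.92 for Spi1. In the block fits, Gpr34 was at -0.017 (-0.014 with DESeq2, and -0.030 and -0.012 without pairs 1 and 2), P2ry12 at -0.062 and -0.25 without pairs 1 and 2, and Aif1 at -0.22 and -0.061 without pairs 2 and 3. The causes were not tested. Fewer than 200 counts in every library stood behind 8 of the members tested, 4 resting genes (P2ry12, P2ry13, Tmem119 and Gpr34) and Aif1, Ly86, Clec7a and Pf4, which limits the precision of these.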
